A study of Mus musculus with 6 samples.

Results

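The genes described here belong to the Fanconi anaemia and homologous recombination pathways of DNA repair. They were chosen as a fixed list of 41 gene symbols, and each of the 41 had a row among the 30037 named genes of the deposited expression table. Of these members 40 were tested, together with 15454 genes in all, and 1 member, Brca2, was listed at 0 in all 6 libraries and could not be tested. Such a 0 in a table without counts may be a failed estimate and does not show that Brca2 was not expressed. The libraries held poly(A) RNA of L-GMP cells, a leukaemic population named for its likeness to granulocyte-macrophage progenitors, which was sorted out of leukaemic marrow of mice with AML (acute myeloid leukaemia). There were 3 WT libraries and 3 Prmt6-/- libraries, from mice of 8 to 10 weeks of age. Prmt6 encodes an arginine methyltransferase, and the comparison asks how gene expression in this leukaemic population differs without it. What induced the leukaemia, and whether each library came from its own mouse, the labels do not say, so the p-values measure the spread between libraries, which may be technical.

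The Fanconi pathway removes crosslinks that tie both DNA strands together. A core complex attaches ubiquitin to the FANCD2-FANCI pair, nucleases then cut the crosslink free, and the resulting break is handed to homologous recombination, in which the broken end is trimmed, loaded with recombinase and paired with the intact sister chromatid. These steps act mostly while DNA is being copied, and dividing blood progenitors are among the cells that need them most: inherited loss of a Fanconi gene leads to bone marrow failure and a raised risk of leukaemia.

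Values are given on the deposited log2 scale, which the authors normalized between libraries. A difference of 1 stands for a doubling of the deposited value before the logarithm, which can be a larger change in the authors' own fold changes. Differences are Prmt6-/- minus WT, and a gene passed the test at an adjusted p under 0.05 (limma, adjusted over all tested genes). The scale is not corrected for gene length, so levels are compared between genotypes and not between genes. It also draws differences of low genes together. For the members that passed, the difference was a median 0.79 times the log2 fold change printed in the authors' deposited table (range 0.56 to 0.90).

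Prmt6, the targeted gene, was lower in the libraries labelled as knockout. It stood at 7.82, 7.60 and 7.41 in WT and at 5.42, 5.46 and 5.48 in Prmt6-/- (difference -2.16, SE 0.0977, limma adjusted p = 3.57e-06). The deposited log2 scale understates this loss: the log2 fold change of Prmt6 in the authors' deposited table is -7.66. The sorted population carried its defining transcripts, with Kit at a mean of 10.14 in WT and 9.85 in Prmt6-/-, Cd34 at 10.44 and 10.47 and Fcgr3 at 13.28 and 13.30, while Ly6a, which encodes Sca-1, a surface protein that such progenitors lack by their usual definition, stood at 2.62 and 2.61. The L-GMP markers themselves differed in part. Of 7, among them Kit, Cd34 and Fcgr3, 2 rose and 1 fell: the granule protease genes Elane and Ctsg differed by 1.45 and 0.51 (limma adjusted p = 3.65e-06 and 0.00386), and Fcgr2b, an inhibitory Fc receptor gene, by -0.88 (0.000507). Mpo, also on the list, differed by -1.11 without passing (limma adjusted p = 0.139), and its values ran from 13.34 to 16.29 across the libraries. The summed linear level of the 7 ranged from 175000 to 240000 in WT and from 332000 to 369000 in Prmt6-/-. Elane, with means of 16.56 and 18.01, makes up the largest part of this sum, so the sum does not stand for the list. Markers of other cell types differed in part as well. Of 7 macrophage markers 2 fell, and their summed linear level ranged from 5460 to 7300 in WT and from 2450 to 2730 in Prmt6-/-. Of 9 markers of mature neutrophils 2 rose and 1 fell, with sums of 1640 to 1890 and 1700 to 3320. Of 6 B-cell markers 1 fell (761 to 838 against 336 to 432), and of 7 T and NK markers 1 rose and 1 fell (1470 to 2740 against 572 to 1500). No marker was listed at 0 in all libraries, though Cd3e lay below 0 on the log2 scale in both genotypes. The part of these markers in the results was not tested, and in bulk RNA fewer cells of a type and less RNA per cell cannot be told apart.

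Among the tested members 10 rose and 2 fell in Prmt6-/- cells, and 28 did not pass. Those that rose were Fanca, Slx4, Xrcc2, Brip1, Rad54l, Rad51c, Xrcc3, Dna2, Rad54b and Fancg, and those that fell were H2afx and Rbbp8. The 12 members make up 30.0% of those tested, against 33.0% of all tested genes, so their number lay near that share. By direction, 25% of the members rose against 15.0% of all tested genes, and 5.0% fell against 18.0%. The median member difference was 0.11, beside 0.01 over all tested genes, and 32 of 40 differences were above 0 (80.0%, against 52.4% of all tested genes). After quantile normalization 14 members rose and 2 fell, and the balance over all tested genes turned to 2827 higher and 2378 lower. The member differences ran from -0.34 to 0.57.

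The share of genes that pass rises with the level of expression, and most members lie at middle to high levels. In the fifth to seventh of 8 equal bins by mean level, which cover means of 7.73 to 10.89, 44.4% of genes passed (19.1% higher and 25.2% lower). These bins held 33 members, of which 9 passed, 8 higher and 1 lower. At these levels members thus passed less often than the 44.4% of genes, mainly through fewer falls. The authors' deposited table, read at the same threshold, calls the same 12 members in the same directions, against 31.0% of all tested genes. Groups that did not overlap between genotypes were seen for 21 members, 18 with every knockout value above every WT value and 3 below, beside 47.4% of all tested genes (23.0% above and 24.4% below).

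**Figure D1:**
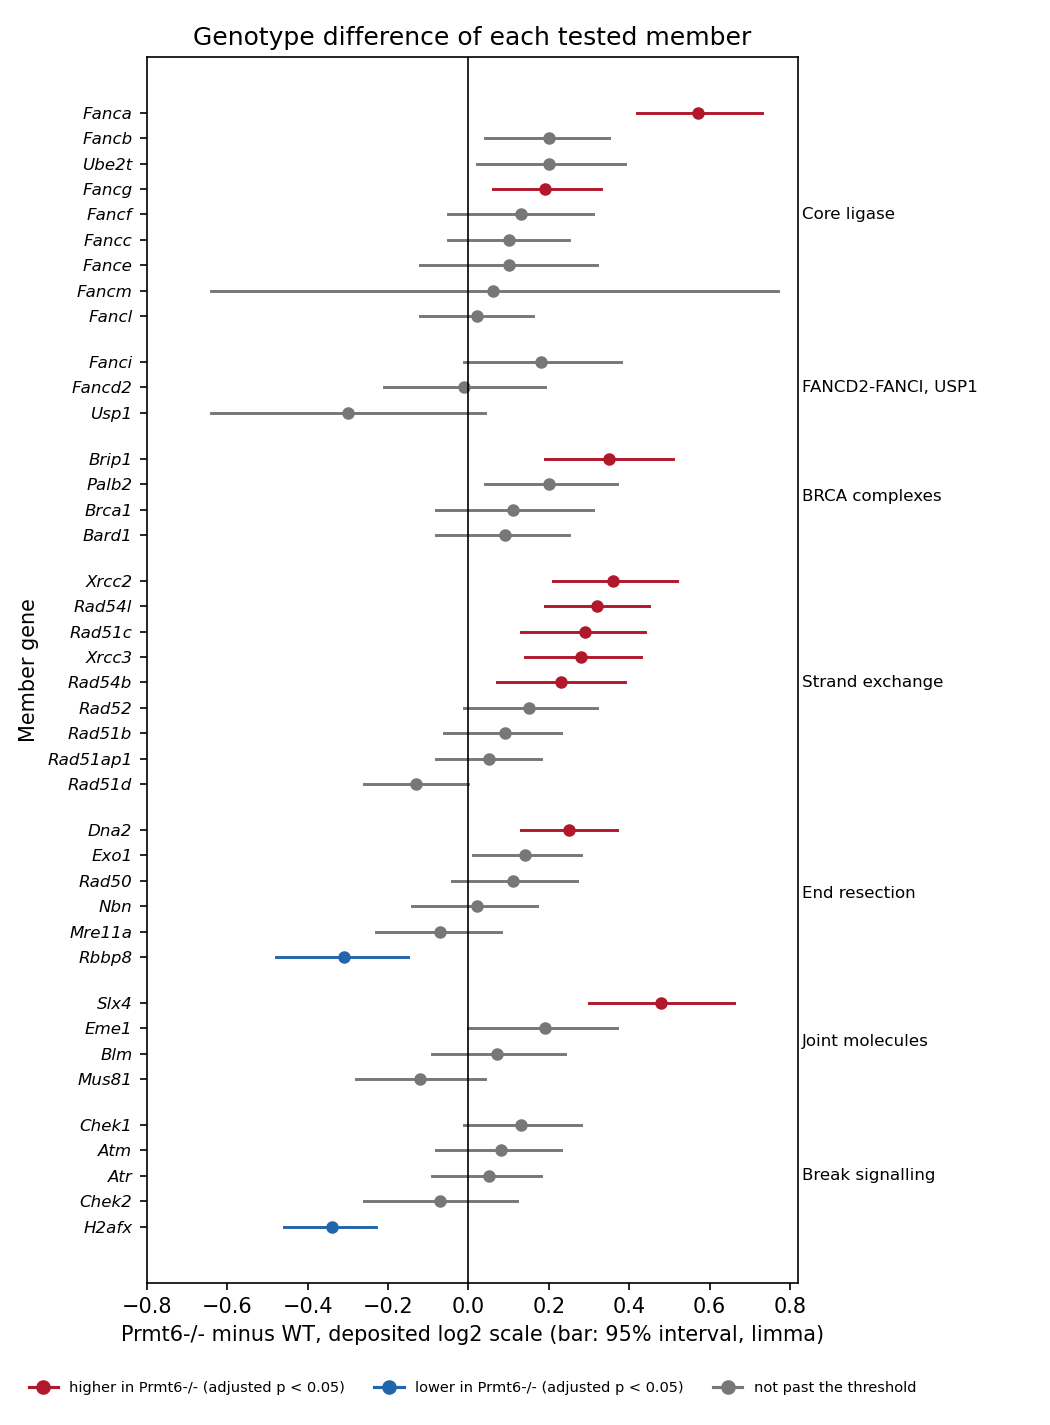
Difference between genotypes (Prmt6-/- minus WT, deposited log2 scale) for the 40 tested members, grouped by role; points are differences, bars are 95% intervals from limma, red and blue mark members past the threshold. The strand exchange group holds 5 of the 10 members that rose, and H2afx and Rbbp8 lie on the left at -0.34 and -0.31.

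Promoter sequences of the members were looked at because 10 members rose together, and because E2F and NF-Y, factors that act at many cell-cycle promoters, recognise short letter patterns. The RefSeq promoter table (GRCm38.p6) held 34 promoters of 31 members. In the 250 bases before the start, the letters CCAAT, the core of the NF-Y site, were present on either strand in 20 of 34 member promoters (58.8%), against 33.8% of all 32851 promoters of the table and 34.9% of the promoters of tested genes. They were about as common in the promoters of members that rose (6 of 10) as in those of members that did not pass (14 of 23). The E2F-type letters TTTCGCGC, TTTGGCGC, TTTCCCGC and TTTGCCGC were found in 4 member promoters (11.8%), those of Fancg, Bard1, Chek2 and Brca2, each with TTTCCCGC, against 1.86% of all promoters and 2.91% of those of tested genes. The letters TTTGAA, called the CHR element of late cell-cycle genes, occurred in 1 member promoter (2.94%, Bard1), against 16.0% of all promoters and 11.0% of those of tested genes. Matches on the 2 strands may overlap, a match is a description of the letters, and promoters of 10 members, among them H2afx, Rbbp8 and Xrcc2, were not in the table.

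The last 110 bases before the start are printed for 5 members that rose, to show how the letters lie in them. Each is written in the direction of the gene, with CCAAT, its reverse ATTGG and TTTCCCGC in capitals. Fanca lies on the minus strand at chr8:123318577-123318686 and Brip1 on the minus strand at chr11:86201194-86201303. Rad54l, here with the first of its starts 1 base apart, is at chr4:116123690-116123799 (minus), Xrcc3 at chr12:111813880-111813989 (minus) and Fancg at chr4:43010302-43010411 (minus).
Fanca: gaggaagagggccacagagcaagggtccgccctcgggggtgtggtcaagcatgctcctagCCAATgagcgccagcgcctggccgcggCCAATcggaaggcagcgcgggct
Brip1: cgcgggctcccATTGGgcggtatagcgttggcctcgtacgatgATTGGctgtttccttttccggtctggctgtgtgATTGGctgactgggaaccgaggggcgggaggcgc
Rad54l: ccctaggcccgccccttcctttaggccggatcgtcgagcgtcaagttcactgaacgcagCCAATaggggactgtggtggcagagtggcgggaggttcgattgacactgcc
Xrcc3: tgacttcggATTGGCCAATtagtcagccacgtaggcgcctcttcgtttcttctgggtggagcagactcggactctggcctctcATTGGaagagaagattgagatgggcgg
Fancg: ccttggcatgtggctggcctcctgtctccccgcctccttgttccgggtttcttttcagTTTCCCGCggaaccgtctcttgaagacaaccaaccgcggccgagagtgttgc
The Brip1 stretch holds 3 copies of the CCAAT letters, all on the opposite strand, and that of Xrcc3 holds 3, of which 2 sit back to back. The Fanca stretch holds 2 and that of Rad54l 1, both in the gene's own direction. No match to these letters was found in the 250 bases before the starts of Dna2 and Rad51c, which also rose. Among members that did not pass, the same 110-base stretch of Ube2t and of Fancf holds 2 copies each.

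Within the Fanconi core complex and its partners, 2 of 9 members rose and none fell (22.2% called, against 33.0% of all tested genes). Each of the 9 differences was above 0, against 52.4% of all tested genes. Those of Fancl and Fancm turned sign when single libraries were left out. Fanca, a subunit of the core complex (chromosome 8, 123268300 to 123318576, GRCm38), stood at 9.20, 9.19 and 9.12 in WT and at 9.85, 9.74 and 9.64 in Prmt6-/-. The lowest knockout library lay well above the highest WT library, and the difference of 0.57 (SE 0.0677, limma adjusted p = 0.000292) was the highest among the members, an increase of 48.9% on the deposited scale. The exons of Fanca overlap those of Zfp276 on the other strand, which differed by 0.24, and the sources used here do not say that counting used strand. Fancg, which joins FANCA in the core, stood at 9.90, 9.93 and 9.82 against 10.09, 10.13 and 10.01. Its groups did not overlap, but the margin was small. The Fancg difference was 0.19 (SE 0.0590, limma adjusted p = 0.0334), a call that ended when WT library 1 (adjusted p = 0.0637), 2 (0.0535) or 3 (0.0920) or knockout library 1 (0.0850) or 2 (0.119) was left out, and without the filter on low values (0.0521).

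The rest of the core showed smaller differences. Fancb, an X-linked subunit that partners the ligase, averaged 7.83 ± 0.07 in WT and 8.02 ± 0.07 in Prmt6-/- (SD, n = 3), and Ube2t, the enzyme that hands ubiquitin to the ligase, 9.64 ± 0.12 and 9.85 ± 0.10. Both had knockout values above all WT values, yet missed the threshold (limma adjusted p = 0.0541 and 0.0802). Fancl, the subunit with the ligase activity itself, differed by 0.02 with a 95% interval of -0.12 to 0.16. Fancc, Fance and Fancf differed by 0.10, 0.10 and 0.13, and their intervals reached from -0.12 to 0.32 at the widest. Fancm, the helicase-like anchor that brings the core to DNA, behaved unlike any other member: its values were 6.17, 5.29 and 6.24 in WT and 6.30, 6.30 and 5.28 in Prmt6-/-. WT library 2 and knockout library 3 thus lay about 1 log2 unit below the other 4, and the 95% interval of the difference, -0.64 to 0.77, was too wide to show a change of the size seen for other members.

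None of the 3 genes around the ubiquitinated FANCD2-FANCI pair passed the test, which 33.0% of all tested genes passed. Fancd2, the clamp subunit that receives the ubiquitin, stood at 8.72, 8.49 and 8.56 in WT and at 8.72, 8.52 and 8.49 in Prmt6-/-. The groups lay on top of each other, with a difference of -0.01 and a 95% interval of -0.21 to 0.19. Its sign turned in 4 of the alternatives named in the closing section. Its partner Fanci averaged 8.21 ± 0.17 and 8.39 ± 0.03 (SD, n = 3), a difference of 0.18 (limma adjusted p = 0.137). Usp1, the protease that removes the ubiquitin again, stood at 10.22, 9.87 and 9.51 in WT and at 9.49, 9.66 and 9.55 in Prmt6-/-. The WT libraries were spread over more than the difference between the groups. The Usp1 difference of -0.30 did not pass (limma adjusted p = 0.167), and it was -0.48 with an adjusted p of 0.0120 without WT library 3.

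**Figure D2:**
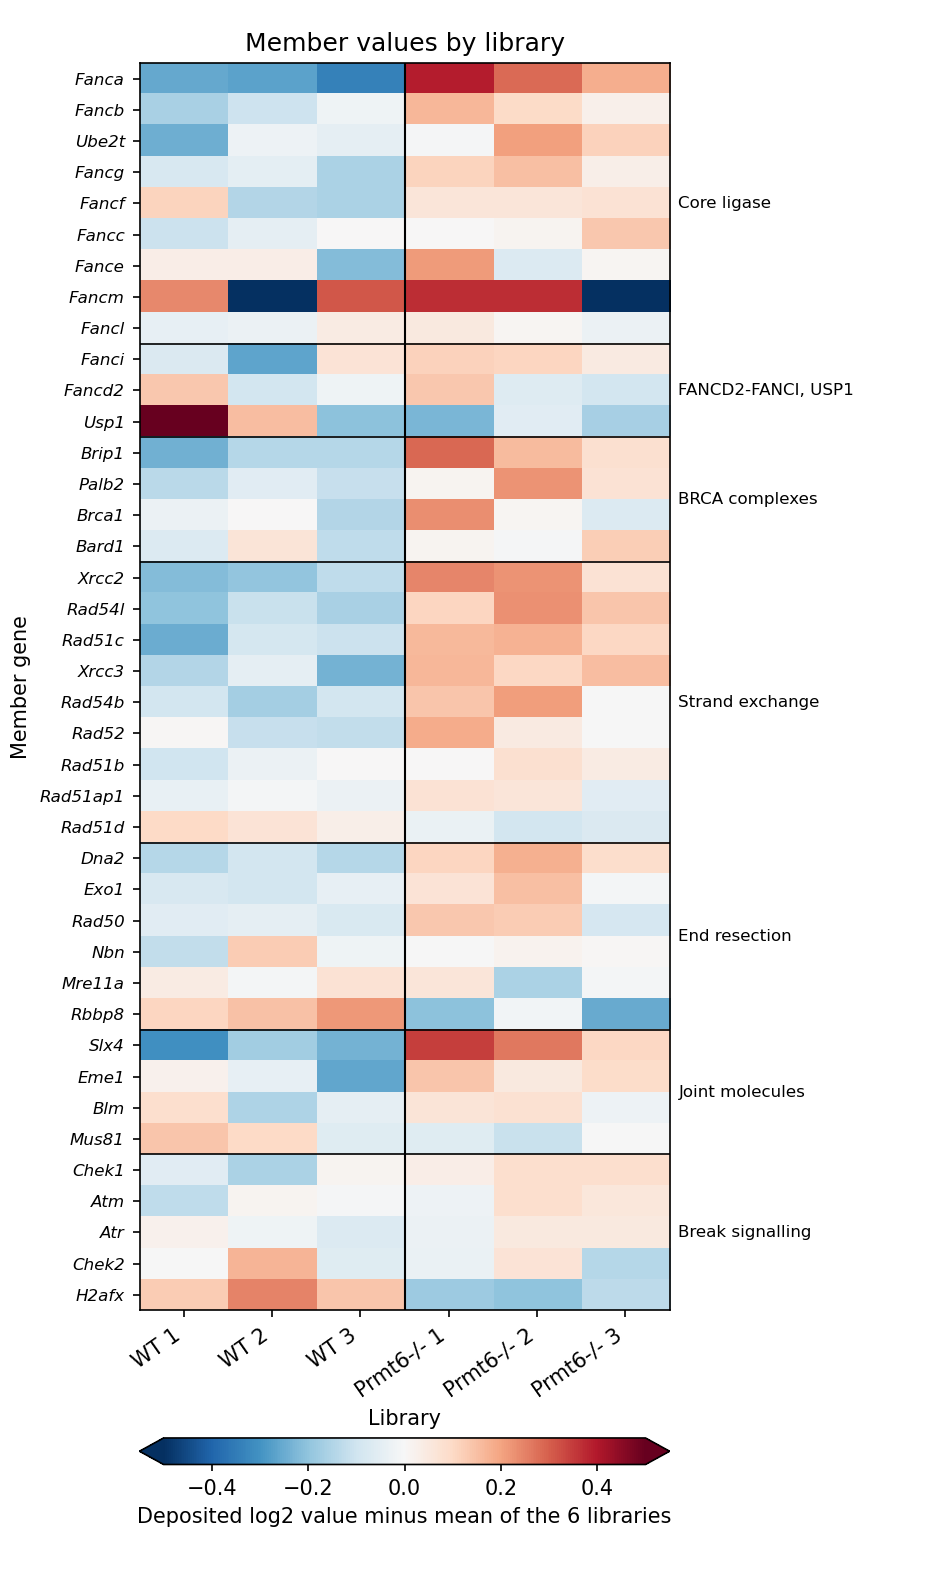
Deposited log2 value of each tested member in each library minus its mean over the 6 libraries (colour scale limited to 0.5 in either direction); rows are members grouped by role, columns are the 3 WT and 3 Prmt6-/- libraries. Most strand exchange genes are below their mean in WT and above it in Prmt6-/-, while Fancm is low in WT library 2 and Prmt6-/- library 3.

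Of the BRCA proteins and their partners, 1 of 4 tested members rose. Brip1 (chromosome 11, 86058138 to 86201193), a helicase bound by BRCA1, stood at 9.22, 9.32 and 9.32 in WT and at 9.75, 9.62 and 9.54 in Prmt6-/-. All 3 knockout libraries were above the WT range, and the difference was 0.35 (SE 0.0694, limma adjusted p = 0.00464). Brca1 itself, which promotes end trimming and recombinase loading, stood at 8.67, 8.70 and 8.55 in WT and at 8.93, 8.71 and 8.63 in Prmt6-/-, so that the groups overlapped. Its difference was 0.11, with a 95% interval of -0.08 to 0.31. Bard1, the obligate partner of BRCA1, differed by 0.09 with an interval of -0.08 to 0.25. Palb2, which bridges BRCA1 to BRCA2, averaged 8.25 ± 0.04 and 8.45 ± 0.11 (SD, n = 3) with groups apart, and missed the threshold (limma adjusted p = 0.0568).

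Strand exchange was the role with the most changes: 5 of 9 members rose and 0 fell. Of its differences, 8 of 9 were above 0 (88.9%, against 52.4% of all tested genes). The share called was 55.6%, against 33.0% of all tested genes and 44.4% of genes in the fifth to seventh level bins. These counts cover the listed members only. Among 41 further Fanconi and recombination genes, described below, 8 rose and 10 fell. The products of Rad51b, Rad51c, Rad51d, Xrcc2 and Xrcc3 are relatives of the recombinase that help it to form filaments on single-stranded DNA. Xrcc2 (chromosome 5, 25689812 to 25705825) stood at 8.55, 8.57 and 8.64 in WT and at 9.01, 8.99 and 8.84 in Prmt6-/-. The groups were apart, and the difference was 0.36 (SE 0.0682, limma adjusted p = 0.00360). Rad51c stood at 7.31, 7.47 and 7.45 against 7.72, 7.73 and 7.66, a difference of 0.29 (limma adjusted p = 0.0108). Its partner in a heterodimer, Xrcc3, stood at 9.33, 9.43 and 9.24 against 9.64, 9.58 and 9.63, a difference of 0.28 (limma adjusted p = 0.00909). In both genes every knockout library exceeded every WT library. Exons of Xrcc3 overlap those of Klc1 on the other strand, which fell by 0.50.

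The other 2 relatives did not pass. Rad51b averaged 6.87 ± 0.05 and 6.95 ± 0.04 (SD, n = 3), with an interval of the difference of -0.06 to 0.23. Rad51d stood at 9.05, 9.02 and 8.98 in WT and at 8.92, 8.86 and 8.88 in Prmt6-/-, the single relative with all knockout values below the WT values. The Rad51d difference was -0.13 (limma adjusted p = 0.107). Thus Rad51c, Xrcc2 and Xrcc3 passed as higher and Rad51d had the opposite sign without passing.

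Rad54l and Rad54b encode motor proteins that help the recombinase search for and invade the matching duplex. Rad54l (chromosome 4, 116094264 to 116123690) stood at 10.34, 10.43 and 10.38 in WT and at 10.65, 10.77 and 10.68 in Prmt6-/-, a difference of 0.32 (SE 0.0570, limma adjusted p = 0.00262). Rad54b stood at 9.43, 9.35 and 9.43 against 9.66, 9.73 and 9.52. Knockout values exceeded WT values in both genes, with knockout library 3 nearest to WT for Rad54b. The Rad54b difference was 0.23 (SE 0.0695, limma adjusted p = 0.0307). That call ended without WT library 1 (adjusted p = 0.0583), 2 (0.101) or 3 (0.0521) and without knockout library 1 (0.0860) or 2 (0.116). Rad52, an annealing protein, and Rad51ap1, a partner of the recombinase, differed by 0.15 and 0.05 and did not pass.

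A list of 41 further Fanconi and recombination genes, none of them a member, was counted in the same fit. In it Rev1, a polymerase that copies past damage during crosslink repair, rose from 9.12 ± 0.02 to 10.09 ± 0.04 (SD, n = 3; difference 0.97, limma adjusted p = 1.25e-05). Fam175a, the scaffold of a BRCA1-containing complex, rose by 0.42. Of the 41 genes 8 rose and 10 fell (43.9% called, against 33.0% of all tested genes), with a median difference of 0.04. Rev1 and Fam175a, which both rose, thus do not stand for the list.

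**Figure D3:**
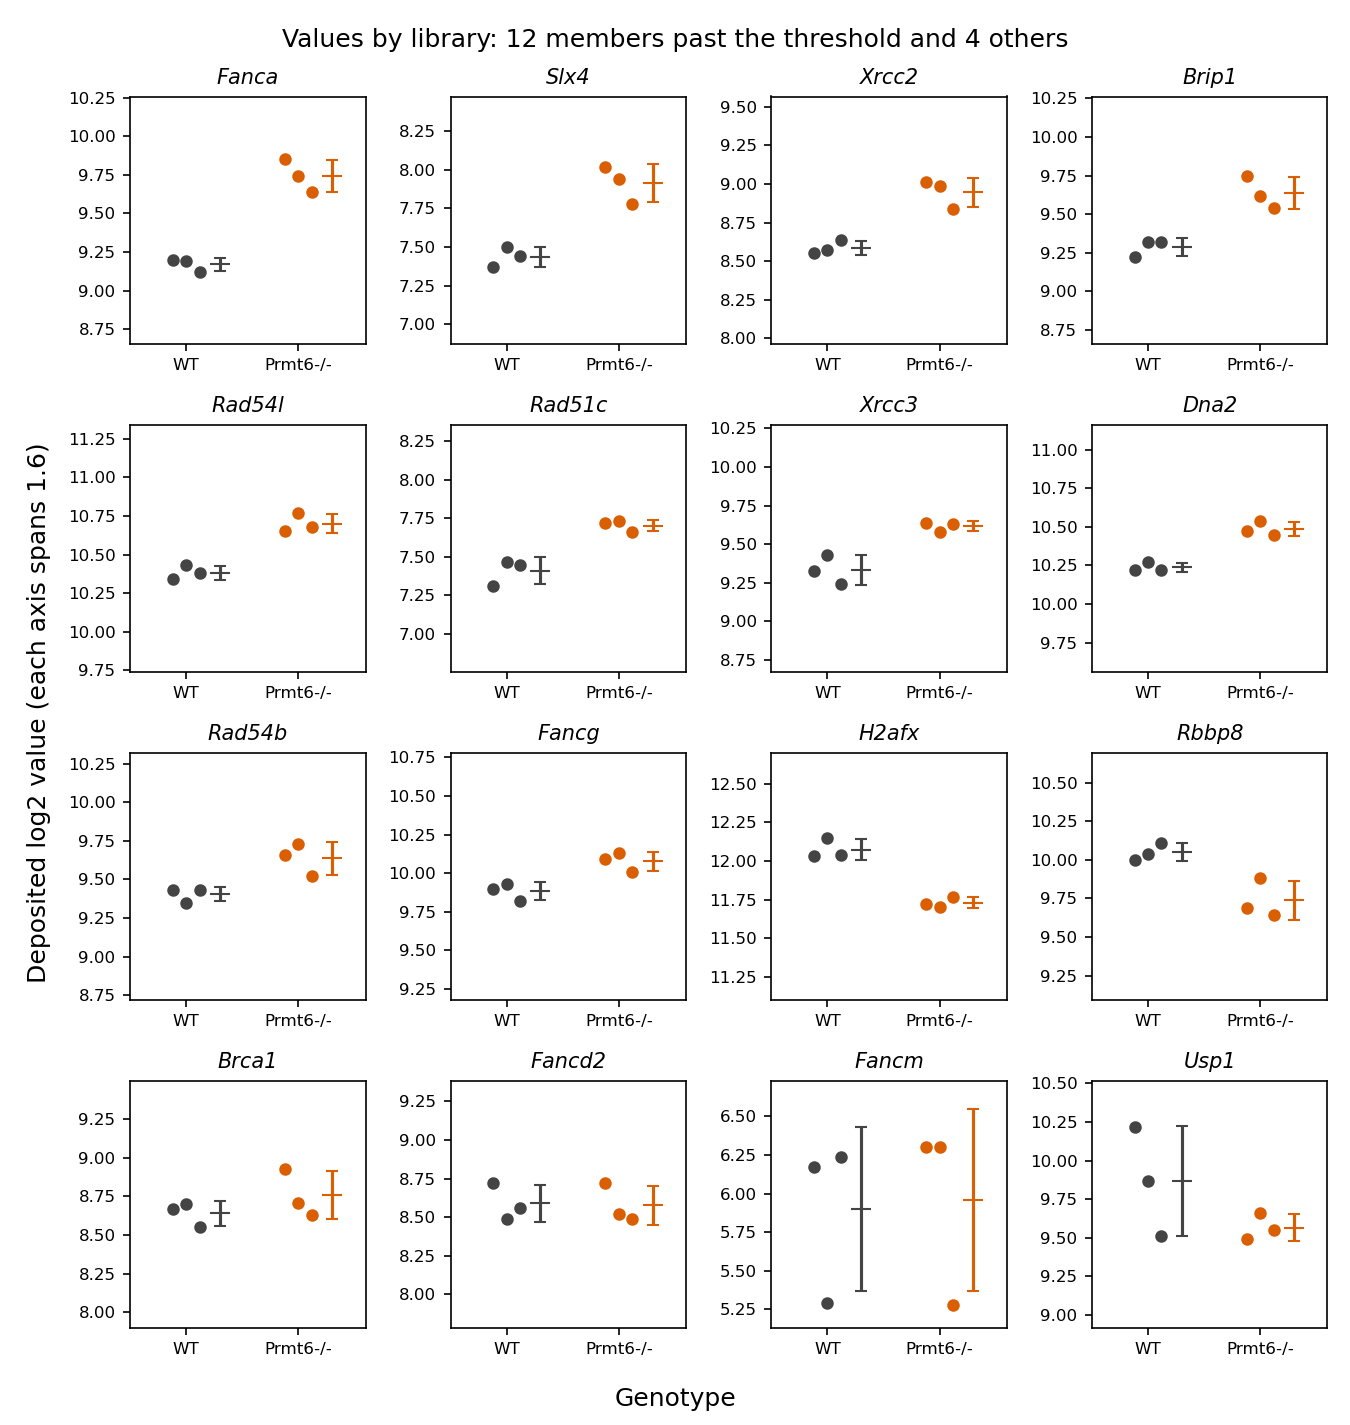
Deposited log2 value of each library for the 12 members past the threshold and for Brca1, Fancd2, Fancm and Usp1; points are libraries, the bar beside them is the mean with its SD (n = 3), and each axis spans 1.6 log2 units. The genotypes do not overlap in the first 12 panels, and they overlap in the last 4.

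Among the genes that trim broken ends, 1 of 6 rose and 1 fell (33.3% called, against 33.0% of all tested genes). Rbbp8, also known as CtIP, which starts the trimming, stood at 10.00, 10.04 and 10.11 in WT and at 9.69, 9.88 and 9.64 in Prmt6-/-. All knockout values were below the WT values, and the difference was -0.31 (SE 0.0740, limma adjusted p = 0.0105). Dna2 (chromosome 10, 62947026 to 62974185), a nuclease that carries the trimming further, stood at 10.22, 10.27 and 10.22 against 10.47, 10.54 and 10.45. It moved the other way, with a difference of 0.25 (SE 0.0533, limma adjusted p = 0.00621). Exo1, the exonuclease that works in parallel with DNA2, averaged 10.07 ± 0.03 and 10.21 ± 0.08 (SD, n = 3) with groups apart and did not pass (limma adjusted p = 0.104). The subunits of the MRN complex, which senses the break, did not pass. Mre11a differed by -0.07, Rad50 by 0.11 and Nbn by 0.02, with intervals between -0.23 and 0.27. Rad50 passed when knockout library 3 was left out (difference 0.184, limma adjusted p = 0.0448).

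Joint molecules, in which the 2 duplexes remain linked, are taken apart by the BLM helicase or cut by nucleases. Slx4 (chromosome 16, 3979105 to 4003770), the platform on which those nucleases assemble and itself a Fanconi gene, stood at 7.37, 7.50 and 7.44 in WT and at 8.02, 7.94 and 7.78 in Prmt6-/-. The groups were well apart, and the difference of 0.48 (SE 0.0785, limma adjusted p = 0.00168) was second only to that of Fanca among the members. In the authors' deposited table the log2 fold change of Slx4 is 0.84, above the 0.73 of Fanca. The nuclease subunits that dock on it did not pass: Mus81 differed by -0.12 (95% interval -0.28 to 0.04) and its partner Eme1 by 0.19 (0.00 to 0.37). Blm differed by 0.07, with overlapping groups.

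Among the kinases and chromatin marks that signal a break, 1 of 5 members fell and none rose. H2afx (chromosome 9, 44334694 to 44336077), the histone variant that is phosphorylated around breaks, stood at 12.03, 12.15 and 12.04 in WT and at 11.72, 11.70 and 11.77 in Prmt6-/-. The groups were apart, and the difference was -0.34 (SE 0.0520, limma adjusted p = 0.00112). The kinases showed no change past the threshold. Atm, which answers to broken ends, differed by 0.08 (95% interval -0.08 to 0.23), and Atr, which answers to single-stranded DNA, by 0.05 (-0.09 to 0.18). Their effector kinases Chek1 and Chek2 differed by 0.13 (-0.01 to 0.28) and -0.07 (-0.26 to 0.12), and Chek1 had all knockout values above the WT values. In a list of 18 further genes of damage signalling 2 rose and 3 fell (27.8% called, against 33.0% of all tested genes). The differences of that list had a median of 0.10 and ranged from -0.49 to 0.33.

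Because recombination genes are expressed mainly in dividing cells, lists of cell-cycle genes were counted in the same fit. Of 33 genes of the S phase 6 rose and 5 fell (33.3% called, against 33.0% of all tested genes), with a median difference of -0.03. Of 24 genes of G2 and mitosis 0 rose and 21 fell (87.5% called), with a median of -0.45. The members, with 10 higher and 2 lower, had more rises than falls, while most genes of the G2 and mitosis list fell. The E2F and RB family list held 2 genes that rose and 4 that fell of 18 tested (33.3% called). The highest-ranked of these were Rbl2, a pocket protein, at -0.61, Tfdp2, a partner of E2F factors, at 0.48 and E2f7, a repressor of the family, at 0.42. The part of cell-cycle distribution in the member differences was not tested.

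**Figure D4:**
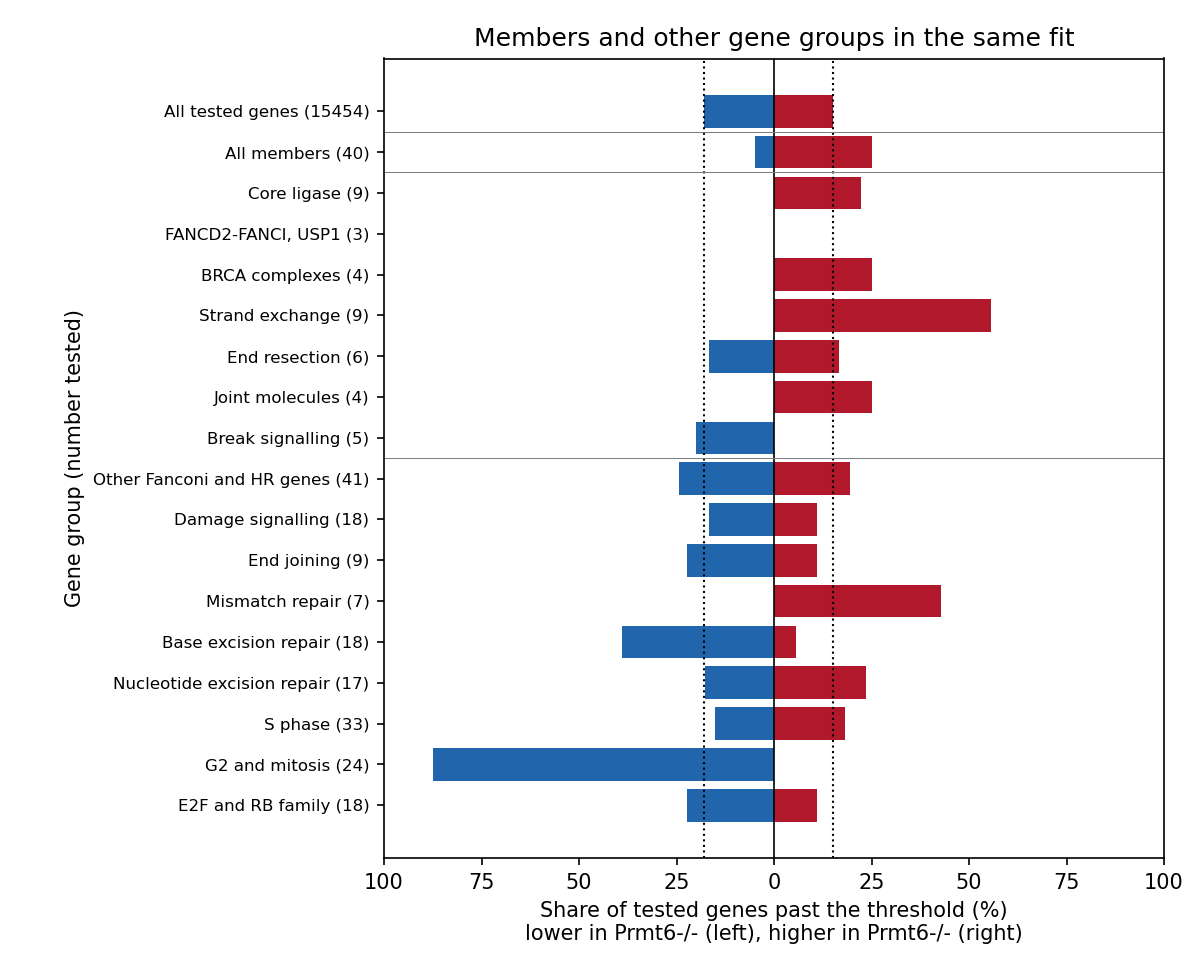
Share of tested genes past the threshold in each gene group, with those lower in Prmt6-/- to the left and those higher to the right; dotted lines mark the shares over all 15454 tested genes (18.0% and 15.0%), and the number tested is given after each name. The members reach 25% on the right and 5.0% on the left, the strand exchange group reaches 55.6% on the right, and the G2 and mitosis list reaches 87.5% on the left.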

How the data were processed

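RNA of 3 WT and 3 Prmt6-/- L-GMP samples was sequenced after oligo(dT) selection and 15 PCR cycles, per the labels' protocols. Trim Galore, kallisto, HOMER and the build GRCm38 appear in the submitters' processing notes, without versions. The deposited sample values are log2 values that the authors normalized between libraries with HOMER's differential expression command, per the file header; the transformation is not named there. Beside them the authors deposited their own log2 fold change, p-value and adjusted p-value of each gene. Read depth is unknown, so no counting interval is given, and 1 row without a gene name was left out.

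The test between genotypes was that of limma 3.58.1 (R 4.3.3; mean-variance trend, two-sided, Benjamini-Hochberg), run over the 15454 genes that reached a value of 1 in 3 or more libraries. The fit was tested on simulated data. The members and the other gene lists were chosen with earlier results of these data known, and no list was tested as a set. Genes outside the members were named by a rule: up to 3 per list with the smallest p among those past the threshold; some genes that it would name are not reported here. Symbols that had changed were matched through RefSeq synonyms, and positions come from GENCODE M21 (GRCm38). Alternatives covered normalization, filters, variance model, replicate block, each library left out, and the authors' own test.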

Additional observations from a re-analysis of the deposited data

How the results depend on the processing

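Of 520 member values under 13 alternatives, 483 kept their direction and side of the threshold, 11 lost the call, 17 gained it and 9 turned sign. Of the 12 members past the threshold 10 passed under every alternative run, and the 2 that did not were Fancg and Rad54b. The number of members that rose ranged from 8 to 11 without 1 library and the number that fell from 2 to 3; the median member difference ranged from 0.105 to 0.153, and the number of all genes called from 3888 to 4598. After quantile normalization 14 members rose and 2 fell, while 2827 of all tested genes were higher and 2378 lower. The number of members that rose was 9 without the filter on low values and 12 after intensity-dependent centring or in limma without trend. The median difference was 0.153 after quantile normalization and 0.193 on the authors' deposited fold changes, whose scale draws low genes together less. The cause of the shift after quantile normalization was not tested. Members that turned sign had not passed: Fancd2 was at 0.034 after quantile normalization. When single libraries were left out, it ranged from -0.080 to 0.058, above 0 for 3 of them (WT library 1 and knockout libraries 2 and 3). In the same way Fancl ranged from -0.001 to 0.047 (below 0 without knockout library 1) and Nbn from -0.041 to 0.081 (below 0 without WT library 1). Fancm ranged from -0.245 to 0.401, and was below 0 without WT library 2 and without knockout library 1 or 2. With the replicate number as a block, 12 members rose and 2 fell, with Ube2t (adjusted p = 0.0300) and Palb2 (0.0498) added, and 5074 genes were called in all. Deviations of same-numbered libraries from their group means correlated at 0.0948, 0.0727 and 0.172 across genes, and each library correlated best with its own number. The main fit used no block because the labels name no litter or day shared by a replicate number. A pseudocount was not varied, since the deposited values are already logarithms. Depth is unknown, so what it limits cannot be stated.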

Other observations

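Other repair pathways were counted in the same fit, from lists that share no gene with the members. The shares called were 44.4% for base excision, 42.9% for mismatch repair, 41.2% for nucleotide excision and 33.3% for end joining. Among all tested genes 33.0% were called (15.0% higher and 18.0% lower), and 44.4% in the fifth to seventh level bins. Base excision repair, which replaces single damaged bases, had more falls than rises, with 7 of 18 tested genes lower and 1 higher (median difference -0.08). The abasic-site nuclease gene Apex1 fell by 0.50 (SE 0.0567, limma adjusted p = 0.000236) and the glycosylase gene Nthl1 by 0.38. Mismatch repair genes rose in 3 of 7 cases and fell in 0, with a median of 0.20. Pms1 rose by 0.66 (SE 0.0639, limma adjusted p = 0.000111), Pms2 by 0.37 and Msh3 by 0.25. Of 17 nucleotide excision genes 4 rose and 3 fell, among them the damage sensor gene Xpc, at -0.79, and the nuclease gene Ercc5, at 0.47. Of 9 end joining genes 1 rose and 2 fell: Polm differed by 0.29, Poll by -0.51 and Dclre1c by -0.21.

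Several members overlap exons of a neighbour on the other strand, and these neighbours moved in both directions. Ankrd49, beside Mre11a, differed by 0.54, Polg, beside Fanci, by 0.49 and Lrrc59, beside Eme1, by 0.44. Gas2, beside Fancf, differed by 0.41 and Vrk2, beside Fancl, by -0.32. The exons of Rad54b, which passed, overlap those of Fsbp on the same strand, which differed by 0.05. Without strand in the counting, reads from the stretch that such a pair shares cannot be told apart. For Rad54b and Fsbp this holds with strand as well. The part of these neighbours in the member values was not tested.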
